A study of Mus musculus with 16 samples.

Results

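The 9 integrin genes described here, Itga4, Itgb1, Itgb7, Itgal, Itgb2, Itgae, Itgav, Itgb3 and Itga6, were taken by symbol from the 23337 gene symbols counted in cultured mouse CD4+ T cells. All 9 were found in the count tables, and all 9 were among the 12952 genes that passed a filter on low counts. The cells came from spleen and lymph nodes of C57BL/6 mice of the genotype Dgcr8f/f Tbx21-/- Cd4-cre, whose age and sex the labels do not give. Every group, the control included, therefore lacked Dgcr8, which is needed to make most microRNAs, in cells with Cd4-driven Cre, and lacked T-bet (Tbx21), the Th1 transcription factor. Cells were stimulated for 3 days through CD3 and CD28 with 10 U/ml IL-4 and then rested for 2 days in 20 U/ml IL-2. On day 1 and day 4 they were transfected with 500 nM of a mimic, a synthetic double-stranded RNA that stands in for a natural microRNA. There were 4 groups of 4 libraries, which received a control mimic, miR-23a, miR-24 or miR-27a, and RNA was taken from sorted live YFP+ CD4+ cells. YFP marks cells in which Cre has acted. The comparisons ask which transcripts differ when a single microRNA is returned to cells that make few of their own. The labels do not say which libraries came from separate mice, so the p-values measure the spread between libraries.

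Integrins are surface receptors made of an alpha and a beta subunit, and which alpha pairs with which beta sets the ligand. In T cells, alpha-L with beta-2 (LFA-1) binds ICAMs on antigen-presenting cells and endothelium, alpha-4 with beta-1 binds VCAM-1 and fibronectin, and alpha-4 with beta-7 binds MAdCAM-1 in the gut. Alpha-E with beta-7 (CD103) binds E-cadherin on epithelium, alpha-V with beta-3 binds vitronectin and other RGD proteins, and alpha-6 with beta-1 binds laminins. MicroRNAs lower their target transcripts mostly through pairing of the seed, bases 2 to 8 of the mature strand, with the 3′ untranslated region (UTR).

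The mature sequences are shown because their seeds set the target sites searched below. They are from RefSeq (build GRCm38.p6), with the seed in capitals. The labels name neither arm nor sequence, and the 3p arms were assumed here.
miR-23a-3p: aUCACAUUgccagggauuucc
miR-24-3p: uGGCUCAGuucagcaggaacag
miR-27a-3p: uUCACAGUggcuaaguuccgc
The 3 seeds differ, and each defines its own sites. The genes of all 3 lie in a row on chromosome 8, Mir23a at chr8:84208563-84208583, Mir27a at chr8:84208727-84208747 and Mir24-2 at chr8:84208875-84208896, given as the span of the mature strand. The same miR-24-3p also comes from Mir24-1 at chr13:63301251-63301272.

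Among the 9 integrins, 3 held a seed match in the longest annotated 3′ UTR (GENCODE M21, GRCm38) and 6 held none. An 8mer is the reverse complement of the seed followed by A (AATGTGAA for miR-23a, CTGAGCCA for miR-24, ACTGTGAA for miR-27a), and was counted once. A 7mer-m8 is its first 7 bases and a 7mer-A1 its last 7. Only the sense strand was searched. The 6 matches, each with the bases before it to a window of 22 and the match in capitals, were these.
Itga4 miR-24 8mer: gcatatactcctagCTGAGCCA
Itga4 miR-24 7mer-A1: tatctgtagatgaaaTGAGCCA
Itga4 miR-27a 8mer: tatgttactatctcACTGTGAA
Itga4 miR-27a 7mer-A1: tatccgctagtgcctCTGTGAA
Itgae miR-24 7mer-A1: cggaaggagggagttTGAGCCA
Itgb3 miR-23a 7mer-A1: cctcttcctggaagcATGTGAA
Those of Itga4 lie on the plus strand at chr2:79332769-79332776, chr2:79330085-79330091, chr2:79328847-79328854 and chr2:79332869-79332875, in the order printed. The match of Itgae lies at chr11:73147172-73147178 and that of Itgb3 at chr11:104668820-104668826, both also on the plus strand.

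Itga4 had by far the longest 3′ UTR of the 9 with 6508 bases, followed by Itgav with 3581, Itgb3 with 3331, Itgal with 1528, Itga6 with 1310 and Itgb1 with 1112. Those of Itgb2, Itgae and Itgb7 were short, with 446, 306 and 165 bases. Of 11022 tested genes with a UTR, 25.5% held a match to miR-23a, 27.1% to miR-24 and 30.0% to miR-27a, and 7.36%, 8.95% and 6.66% held an 8mer. Among 356 genes with a UTR within 20% of the length of Itga4's, 64.0% held a match to miR-24 and 76.7% to miR-27a. An 8mer of these microRNAs was in 24.7% and 21.1% of them. A match of any kind was thus common at this length and an 8mer less so. The share of these genes with an 8mer of both microRNAs was not computed. Itgb3 held no match to miR-24 or miR-27a in its annotated 3′ UTR, which speaks only of these letters in this window.

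**Figure D1:**
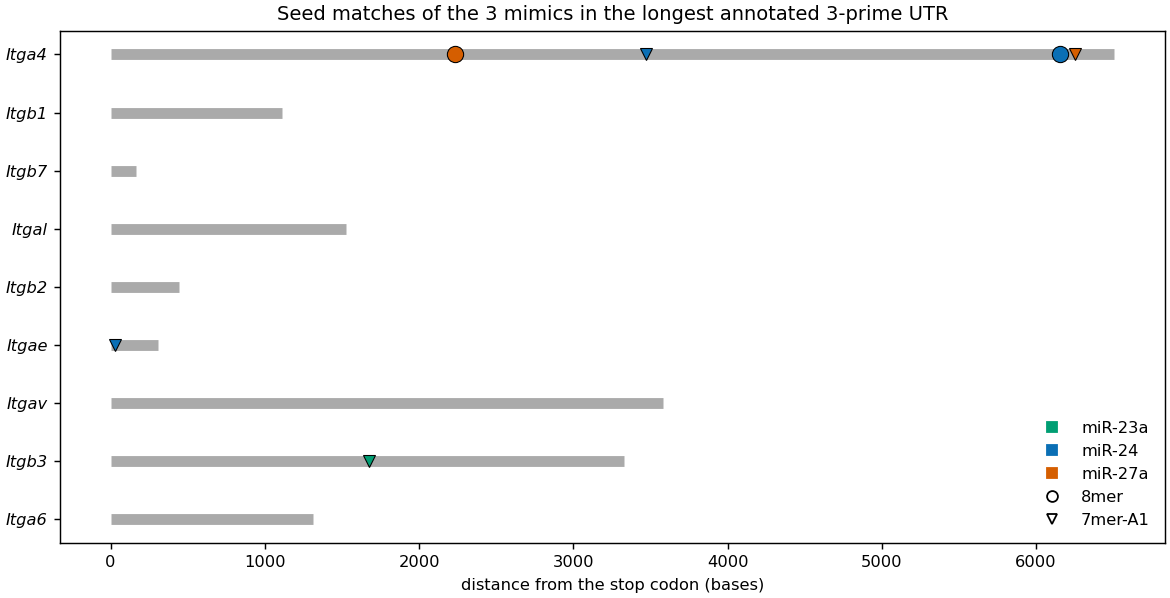
Seed matches of the 3 mimics in the longest annotated 3′ UTR of each integrin gene. The x axis is the distance from the stop codon in bases, grey bars are the UTRs, circles are 8mers, triangles are 7mer-A1 matches, and colours give the microRNA. Of the 6 matches, 4 lie in Itga4, whose UTR is 6508 bases long.

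Reads in genes numbered 2120408 to 13714841 in 15 libraries but 51474 in control replicate 1. In that library 1 read was worth 16.3 CPM (counts per 1000000 reads, with the library size scaled) and 7292 genes had a read, against 13400 to 15847 elsewhere. The CPM of the 9 integrins in it are given with their reads, and control means of other genes and of marker lists include it unless stated. The defining genes of CD4 T cells were present, Cd3e at 534 to 1080 CPM and Cd4 at 297 to 947 CPM, while the CD8 T cell genes Cd8a and Cd8b1 reached at most 6.55 and 34.8 CPM. The 7 CD4 T cell markers summed to 4130 ± 718 CPM (SD, n = 4) in control libraries, 3780 ± 372 after miR-23a, 3000 ± 326 after miR-24 and 3170 ± 251 after miR-27a. The share of gene reads in Rn45s, a precursor of ribosomal RNA, was 0.300% to 4.41% in control libraries, 1.77% to 10.5% after miR-23a, 1.65% to 19.1% after miR-24 and 1.17% to 10.2% after miR-27a. In bulk RNA, fewer cells with a transcript and less transcript per cell cannot be told apart.

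Read per kb of annotated exon over all 16 libraries, Itgb1, the common partner of many alpha subunits, had the highest level with 245 ± 105 CPM per kb (SD, n = 16). It was followed by Itga4 with 116 ± 75.9, Itgb2 with 93.9 ± 26.5, Itgal with 81.2 ± 13.6, Itgb7 with 73.4 ± 19.4, Itgb3 with 69.2 ± 40.7 and Itgav with 56.5 ± 14.9 CPM per kb. The ranges of mean ± SD overlapped between neighbours in this order. The step down to Itga6, with 9.13 ± 4.21 CPM per kb, and from there to Itgae, with 1.90 ± 0.875, exceeded the spread. The length is that of all annotated exons together, so a gene whose cells use a shorter transcript than annotated is placed too low.

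**Figure D2:**
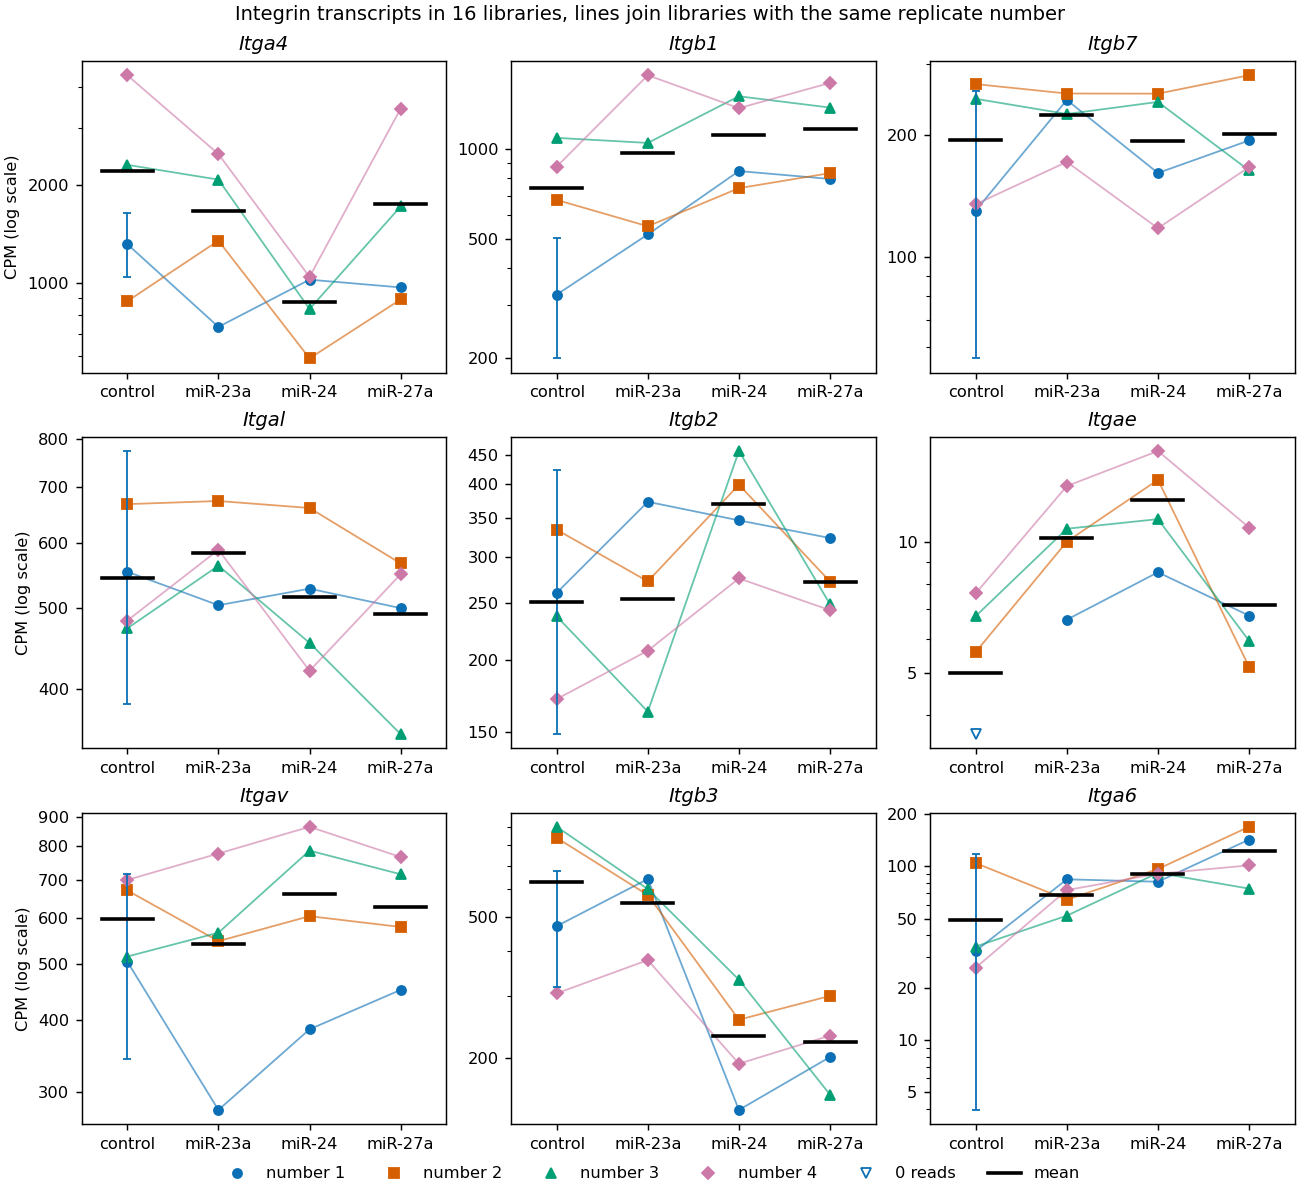
Level of each integrin gene in all 16 libraries. The y axis is CPM on a log scale, the x axis the mimic, points are libraries coloured by replicate number with a line joining equal numbers, black bars are group means, and the error bar on control replicate 1 is the exact 95% Poisson interval of its few reads (counting error only, here and below), or for Itgae an open triangle for 0 reads at the foot of the panel. Itgb3 sits between 142 and 333 CPM after miR-24 and miR-27a, and Itga4 spans 590 to 4336 CPM.

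Levels were compared with edgeR's quasi-likelihood test in all 16 libraries, with mimic and replicate number as terms and Benjamini-Hochberg adjustment over all 12952 genes, and a gene was called at an adjusted p under 0.05. Of the 9 integrins, 3 were called in at least 1 of the 6 pairwise comparisons of groups (Itgb3, Itga4 and Itga6) and 6 in none. The share of all genes called in at least 1 of the 6 was not computed, so this count has no background to be read against. Against control, miR-24 had 2 lower (Itgb3 and Itga4) and 0 higher, where 2.25% of all genes tested were called lower and 2.32% higher. With miR-27a 1 was lower (Itgb3) and 1 higher (Itga6), where 1.32% of all genes were called lower and 1.75% higher. With miR-23a 0 were called, where 0.386% of all genes were called lower and 0.0386% higher, and 1 of the 9 had an unadjusted p under 0.05 (Itgae, 0.0217). Such a p was found in this comparison for 2202 of the 12952 genes. DESeq2 and edgeR without the replicate number also called 0 of the 9 there.

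Between mimics, Itgb3 was the integrin called higher after miR-23a than after miR-24, where 2.73% of all genes were called higher and 2.65% lower. It was also the integrin called higher after miR-23a than after miR-27a, where 0.957% of all genes were called higher and 1.99% lower. Between miR-24 and miR-27a 0 of the 9 were called by edgeR, with 3 at an unadjusted p under 0.05, and 1 by DESeq2 (Itgae), while edgeR called 1.80% of all genes higher after miR-24 and 2.62% lower. A test for any difference among the 4 groups called Itgb3 and Itga6, with 9.68% of all genes. Of 16 fits that each left out 1 library, 16 kept the call of Itgb3 and 6 that of Itga6 (adjusted p = 0.0382). The Itga6 call was also lost with limma's voom (0.0568), without the 4 libraries numbered 1 (0.0942) and without the replicate number (0.204). Without the replicate number in the model, Itgb3 was called after miR-24 against control, where 0.849% of all genes were called, and in the test for any difference, where 1.94% were. No integrin was then called after miR-23a or miR-27a against control (0.131% and 0.170% of all genes), or between miR-23a and miR-24 (1.10%), miR-23a and miR-27a (0.548%) or miR-24 and miR-27a (0.880%).

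The 3 comparisons with control share the same 4 control libraries, so their values are set side by side and not counted as separate evidence. The median log2 fold change of the 9 was 0.11 after miR-23a, 0.12 after miR-24 and 0.09 after miR-27a, against 0.04, 0.04 and 0.02 over all genes tested. The 9 thus held values in both directions, 5 above and 4 below 0 after miR-23a, 5 and 4 after miR-24, and 6 and 3 after miR-27a.

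**Figure D3:**
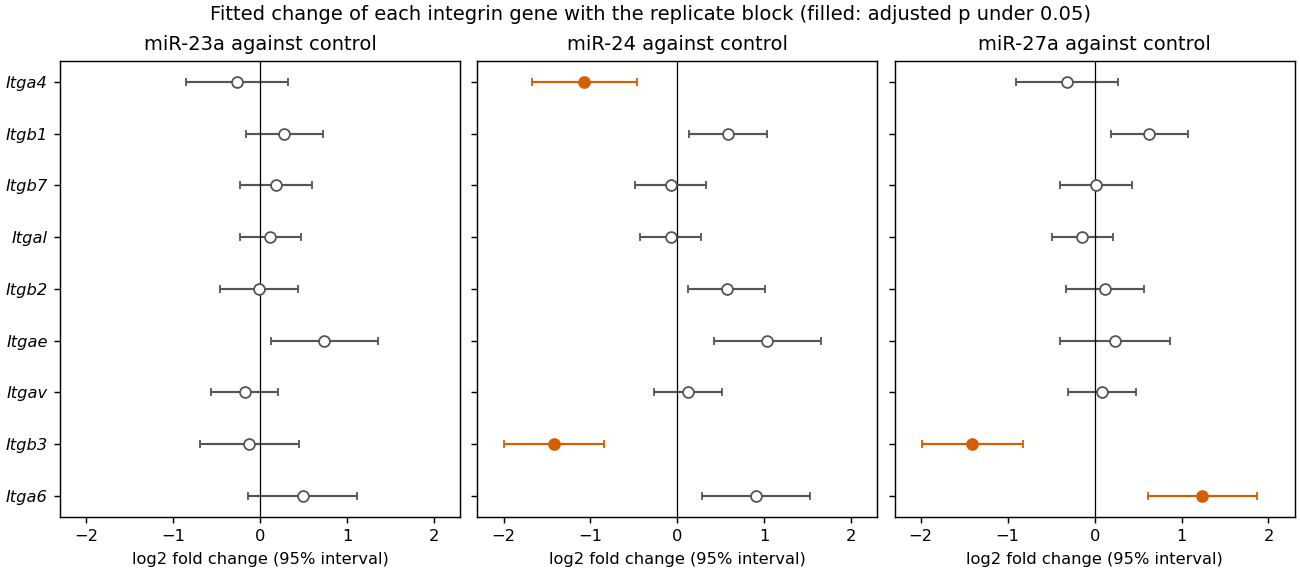
Fitted change of each integrin gene with each mimic against control. The x axis is the log2 fold change with its 95% interval from the model with the replicate number, the y axis lists the genes, and filled points have an adjusted p under 0.05. Itgb3 lies at -1.42 after miR-24 and -1.41 after miR-27a but at -0.13 after miR-23a.

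Itgb3, which encodes the beta-3 subunit (chr11:104608000-104670476, plus strand), fell after miR-24 and after miR-27a and had the largest fall of the 9 in both. Its control libraries 1 to 4 stood at 472 (29 reads), 841, 904 and 304 CPM, and the miR-23a libraries at 642, 578, 601 and 378 CPM. The miR-24 libraries stood at 142, 256, 333 and 192 CPM and the miR-27a libraries at 201, 299, 157 and 231 CPM. By point values all 4 miR-27a libraries were below all control libraries, while miR-24 overlapped the control through its library at 333 CPM and the control library at 304 CPM. The Poisson intervals of the miR-27a library at 299 CPM (276 to 323) and the control library at 304 CPM (291 to 318) overlapped. Libraries of miR-23a lay above every library of miR-24 and of miR-27a.

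Relative to control, the log2 fold change of Itgb3 was -1.42 ± 0.27 (SE) after miR-24, or 0.375 of the control level, with an adjusted p of 0.00683 and lower values in 4 of 4 equal-numbered pairs. Over the alternatives tried this adjusted p ranged from 0.000401 to 0.0681, and the call was lost in 1 of 24, the fit without control replicate 3. With miR-27a it was -1.41 ± 0.28, or 0.376 of control, with an adjusted p of 0.0119 and again lower values in 4 of 4 pairs. That call was lost without the replicate number in the model (0.0650), without control replicate 3 and without miR-27a replicate 3 (at most 0.0803). Within equal-numbered pairs the differences in log2-CPM were -1.73, -1.71, -1.44 and -0.66 after miR-24, and -1.23, -1.49, -2.52 and -0.40 after miR-27a. The pair numbered 4 had the smallest difference in both, and its control library was the lowest of the control group.

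Itgb3 did not differ from control by the test after miR-23a (-0.13 ± 0.27, 95% interval -0.70 to 0.44, adjusted p = 0.849). Among the mimics, only miR-23a has a match in the Itgb3 UTR, a 7mer-A1. A miR-23a match of any kind was in 47.4% of 1348 genes with a UTR of like length, chosen as for Itga4. The part of this match in the level of Itgb3 was not tested. Compared directly, Itgb3 was higher after miR-23a than after miR-24 by 1.29 ± 0.27 on the log2 scale (adjusted p = 0.00842, higher in 4 of 4 pairs) and than after miR-27a by 1.28 ± 0.27 (adjusted p = 0.0122, 4 of 4 pairs). Leaving out any 1 of the 16 libraries kept the call against miR-24, while that against miR-27a was lost without miR-23a replicate 1 or miR-27a replicate 3 (at most 0.0669). Neither held without the replicate number in the model (0.0719 and 0.0914) or without the 4 libraries numbered 1 (0.0934 and 0.0736). Between miR-24 and miR-27a the difference was -0.0052 with a 95% interval of -0.56 to 0.55, so a difference within these bounds was not detectable. The test for any difference among the groups gave Itgb3 an adjusted p of 0.00191 (0.000736 to 0.00805 when each library was left out in turn).

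Beta-3 is also abundant on platelets, where it pairs with alpha-IIb (Itga2b). The 7 platelet and megakaryocyte markers summed to at most 6.99 CPM in any library, Ppbp had no read in any library and Pf4 at most 2 reads. Itga2b itself averaged 0.878 CPM in control libraries (1.17 without control replicate 1, where it had 0 reads) and 1.89 CPM after miR-24. Without Rn45s in the counts the adjusted p of Itgb3 was 0.00746 after miR-24 and 0.0123 after miR-27a. The sum of CD4 T cell markers was lower after miR-24 and miR-27a, as Itgb3 was, but its members did not move together. The means of 5 of the 7 were lower and 2 higher after miR-24, while after miR-27a 2 were lower and 5 higher, and Cd28 alone went from 2120 to 1040 CPM. Cd3g counts as higher after miR-27a, at 258 CPM, but its control mean without control replicate 1 was 264 CPM. The part of these markers in the result was not tested.

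Itgav, the alpha-V subunit that pairs with beta-3 (chr2:83724397-83806916, plus strand), was not called in any comparison. Its control libraries stood at 505 (31 reads), 671, 515 and 699 CPM, those of miR-23a at 279, 548, 567 and 777, those of miR-24 at 385, 605, 786 and 864, and those of miR-27a at 451, 580, 715 and 766 CPM. All groups overlapped. Over the 6 comparisons its log2 fold changes lay between -0.30 and 0.12, with interval bounds of -0.68 to 0.51.

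The ratio of reads of Itgav to Itgb3, each per exon length, does not depend on the scaling of libraries and is given as a description. In the control libraries it was 0.587 (31 and 29 reads), 0.438, 0.313 and 1.26, and after miR-23a 0.239, 0.520, 0.517 and 1.13. With miR-24 it was 1.49, 1.30, 1.30 and 2.47, and after miR-27a 1.23, 1.06, 2.50 and 1.82. Thus the miR-24 ratios lay above all control and miR-23a ratios, and those of miR-27a overlapped them. The mean was 0.649 ± 0.422 (SD, n = 4) in control libraries, 0.601 ± 0.376 after miR-23a, 1.64 ± 0.561 after miR-24 and 1.65 ± 0.652 after miR-27a.

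**Figure D4:**
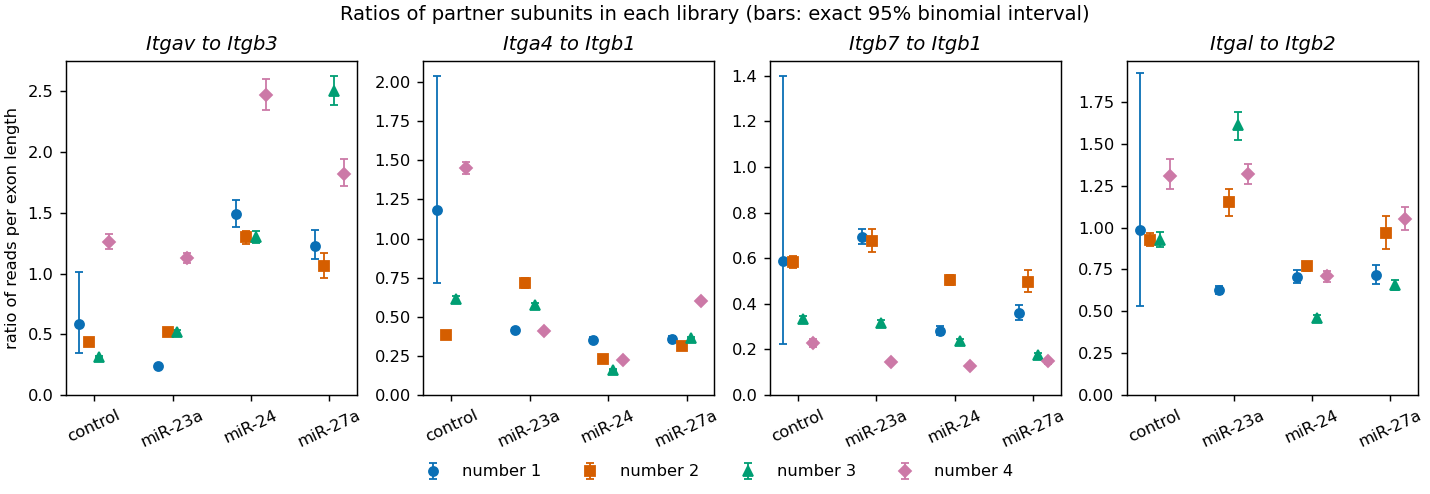
Ratios of partner subunits in each library. The y axis is the ratio of reads per exon length, the x axis the mimic, points are libraries by replicate number, and bars are exact 95% binomial intervals (counting error only). Itgav to Itgb3 lies at 1.30 to 2.47 after miR-24 against 0.313 to 1.26 in control libraries, and Itga4 to Itgb1 at 0.162 to 0.354 after miR-24 against 0.381 to 1.45.

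Itga4, the alpha-4 subunit of the VCAM-1 and MAdCAM-1 receptors (chr2:79255426-79333123, plus strand), fell after miR-24 in a call that depended on the model. Its control libraries stood at 1319 (81 reads), 882, 2306 and 4336 CPM, and the miR-24 libraries at 1027, 590, 835 and 1047 CPM. With miR-23a the libraries stood at 736, 1352, 2078 and 2488 CPM, and after miR-27a at 972, 893, 1720 and 3427 CPM. The miR-24 libraries lay closest together, and they overlapped the lower libraries of every other group. In all 4 groups the library numbered 4 was the highest.

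Against control, the log2 fold change of Itga4 after miR-24 was -1.07 ± 0.29 (SE, 95% interval -1.67 to -0.47), or 0.477 of control, with an adjusted p of 0.0421. Each equal-numbered pair was lower, by -0.36, -0.58, -1.47 and -2.05 in log2-CPM, but the groups overlapped. The call was lost without the replicate number in the model (-1.35, adjusted p = 0.229), with RLE scaling (0.0511) and in 9 of the 16 fits that left out a library (at most 0.185). Those were the fits without control replicate 1, 3 or 4, miR-24 replicate 2, 3 or 4, miR-23a replicate 4, or miR-27a replicate 2 or 3. Over all 24 alternatives the log2 fold change stayed between -1.45 and -0.83.

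With miR-27a, which has an 8mer and a 7mer-A1 in the Itga4 UTR as miR-24 does, the log2 fold change was -0.31 ± 0.28 (-0.90 to 0.27, adjusted p = 0.519). With miR-23a, which has no match, it was -0.27 ± 0.28 (-0.86 to 0.32, adjusted p = 0.642). The difference between miR-24 and miR-27a was -0.75 ± 0.28 (-1.34 to -0.16) with an adjusted p of 0.143, which ranged from 0.00989 to 0.396 over the alternatives and fell under 0.05 in 3 of 24. That between miR-23a and miR-24 was 0.80 ± 0.28 with an adjusted p of 0.119 (0.00782 to 0.480). The fall of Itga4 after miR-24 is thus not shown to differ from the other mimics by this test. The antisense gene Cerkl overlaps the Itga4 locus, had at most 25.1 CPM in any library, and cannot be told apart from it where the counting ignored strand, which the sources used here do not state.

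Itgb1, the beta-1 subunit that pairs with alpha-4, alpha-6 and others (chr8:128685654-128733200, plus strand), was not called in any comparison. Its control libraries stood at 326 (20 reads), 677, 1093 and 876 CPM and those of miR-23a at 518, 552, 1051 and 1773 CPM. With miR-24 they stood at 846, 741, 1507 and 1375 CPM and after miR-27a at 796, 832, 1381 and 1671 CPM. Each miR-24 and miR-27a library was above the control library of its number, but the groups overlapped. The log2 fold change was 0.58 ± 0.21 (SE, 0.14 to 1.03, adjusted p = 0.130) after miR-24 and 0.63 ± 0.21 (0.19 to 1.08, adjusted p = 0.102) after miR-27a. Over the alternatives these adjusted p-values ranged from 0.0408 to 0.582 and from 0.00136 to 0.492, with DESeq2 under 0.05 for both.

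The ratio of Itga4 to Itgb1 per exon length was 1.18, 0.381, 0.616 and 1.45 in the control libraries and 0.354, 0.232, 0.162 and 0.222 after miR-24. All miR-24 ratios lay below all control ratios, and also below all those of miR-23a (0.410 to 0.715). With miR-27a the ratio spanned 0.313 to 0.599 and overlapped both control and miR-24. In the first control library it rests on 81 and 20 reads.

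Itgb7, the beta-7 subunit of the gut-homing receptor (chr15:102215995-102231944, minus strand), varied little. Its control libraries stood at 130 (8 reads), 267, 246 and 135 CPM, and all 16 libraries lay between 118 and 281 CPM. Group means were 195 ± 72.0 (SD, n = 4) in control libraries, 224 ± 36.5 after miR-23a, 193 ± 64.8 after miR-24 and 201 ± 54.8 after miR-27a. Over the 6 comparisons its log2 fold changes lay between -0.09 and 0.26 with interval bounds of -0.49 to 0.65, and the smallest adjusted p was 0.524. Changes of up to these bounds could have gone undetected.

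Itgal, the alpha-L subunit of LFA-1 (chr7:127296260-127335138, plus strand), was the steadiest of the 9. Apart from control replicate 1, its highest library was 1.91 times its lowest, where this ratio was 7.35 for Itga4 and 6.36 for Itgb3. The control libraries stood at 554 (34 reads), 668, 473 and 483 CPM, and the means were 544 ± 89.6 (SD, n = 4) in control libraries, 582 ± 70.2 after miR-23a, 516 ± 106 after miR-24 and 492 ± 97.2 after miR-27a. Its log2 fold changes lay between -0.14 and 0.25 with interval bounds of -0.49 to 0.60 (smallest adjusted p 0.498).

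Itgb2, the beta-2 subunit and partner of alpha-L (chr10:77530252-77565708, plus strand), stood at 261 (16 reads), 334, 237 and 171 CPM in the control libraries and at 347, 400, 457 and 276 CPM after miR-24. The miR-23a libraries were at 374, 273, 163 and 207 CPM and those of miR-27a at 324, 272, 249 and 243 CPM. Each miR-24 library was above the control library of its number, and the groups overlapped. The log2 fold change after miR-24 was 0.57 ± 0.21 (0.12 to 1.01) with an adjusted p of 0.142, which was under 0.05 in 1 of 24 alternatives (0.0410, without miR-24 replicate 1). Itgb2 is shared with myeloid alpha subunits. Myeloid markers summed to at most 17.8 CPM in any library, and Itgam, itself such a subunit, alone reached 17.7 CPM. The part of myeloid cells in the level of Itgb2 was not tested.

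The ratio of Itgal to Itgb2 per exon length was 0.926 to 1.31 in control libraries (34 and 16 reads in control replicate 1) and 0.462 to 0.768 after miR-24, which did not overlap by point values. The binomial interval of control replicate 1, 0.53 to 1.92, included the highest miR-24 ratio. The ratio was 0.627 to 1.61 after miR-23a and 0.658 to 1.05 after miR-27a, and both overlapped the control. The other partner ratios overlapped between miR-24 and control. Itgb7 to Itgb1 was 0.126 to 0.503 after miR-24 and 0.227 to 0.589 in control libraries. Itga4 to Itgb7 was 0.462 to 1.76 and 0.655 to 6.36, and Itga6 to Itgb1 0.0275 to 0.0589 and 0.0135 to 0.0698. Itgae to Itgb7 was 0.0283 to 0.0831 and, without control replicate 1, 0.0127 to 0.0341. How often ratios of other gene pairs overlap was not examined.

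Itgae, the alpha-E subunit of CD103 (chr11:73090583-73147446, plus strand), had the lowest level per kb of the 9, with 11 to 176 reads in 15 libraries and 0 in control replicate 1. In that library 3 reads, the limit that a count of 0 allows, amount to 48.8 CPM, above every other library, so that library says nothing of Itgae. The other control libraries stood at 5.59, 6.76 and 7.62 CPM, and the miR-24 libraries at 8.52, 13.9, 11.3 and 16.2 CPM. With miR-23a the libraries stood at 6.63, 10.0, 10.7 and 13.5 CPM and after miR-27a at 6.78, 5.17, 5.93 and 10.8 CPM. By point values all miR-24 libraries were thus above the 3 informative control libraries. The Poisson intervals of miR-24 replicate 1 (51 reads, 6.344 to 11.2 CPM) and control replicate 4 (50 reads, 5.655 to 10.05 CPM) overlapped.

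With miR-24 the fitted log2 fold change of Itgae was 1.03 ± 0.29 (SE, 0.42 to 1.65) with an adjusted p of 0.0503, just outside the threshold. Over the alternatives it ranged from 0.00385 (DESeq2) to 0.226 (no replicate number in the model) and was under 0.05 in 5 of 24, among them the fit without the 4 libraries numbered 1 (0.0365). Itgae, like Itga4, holds a miR-24 7mer-A1, which lies at base 32 of its UTR. A miR-24 match of any kind was in 7.7% of 701 genes with a UTR of like length, chosen as for Itga4. The part of this match in the level of Itgae was not tested. With miR-23a the log2 fold change was 0.73 ± 0.29 (adjusted p = 0.219) and after miR-27a 0.24 ± 0.30 (adjusted p = 0.670). Haspin, an antisense gene within Itgae listed as Gsg2 in the files, had 11.9 to 82.6 CPM, and reads of both could be mixed if strand was ignored.

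CD103 is also found on regulatory T cells, dendritic cells and CD8 T cells. The regulatory T cell markers Foxp3, Ikzf2 and Nrp1 summed to 55.8 ± 24.2 CPM (SD, n = 4) in control libraries and 95.6 ± 38.7 CPM after miR-24, but Foxp3 alone averaged 8.32 and 2.73 CPM. Control replicate 1 held 1 read of Foxp3, and without it the control mean of Foxp3 was 5.66 CPM and that of the 3 genes 58.2 CPM. Dendritic cell markers summed to 22.7 ± 8.42 and 21.8 ± 4.95 CPM, and CD8 markers to 16.1 ± 13.1 and 22.2 ± 5.85 CPM. Without control replicate 1, which had 2 and 0 reads of these lists, the control means were 19.5 and 21.5 CPM. The part of regulatory T cells in the level of Itgae was not tested.

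Itga6, the alpha-6 laminin receptor subunit (chr2:71745616-71858416, plus strand), rose after miR-27a. Its control libraries stood at 32.6 (2 reads), 104, 34.5 and 26.1 CPM, and the miR-27a libraries at 143, 169, 74.4 and 101 CPM. With miR-23a the libraries stood at 84.2, 64.2, 52.0 and 73.0 CPM and after miR-24 at 81.5, 96.6, 91.6 and 90.7 CPM. Control replicate 2 stood far above the other control libraries and within the range of the mimic groups, so that every group overlapped the control. The library numbered 2 was also the highest after miR-24 and after miR-27a.

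With miR-27a the log2 fold change of Itga6 was 1.24 ± 0.30 (SE, 0.62 to 1.87), or 2.36 times control, with an adjusted p of 0.0301 and higher values in 4 of 4 equal-numbered pairs. It was lost without the replicate number in the model (0.173), without the 4 libraries numbered 1 (0.0859) and in 6 of the 16 fits that left out a library. Those were the fits without control replicate 1 (0.0574), 3 or 4 or without miR-27a replicate 1, 2 or 3, with an adjusted p of at most 0.158. With miR-24 it was 0.90 ± 0.30 (0.28 to 1.52, adjusted p = 0.0884, 3 of 4 pairs higher) and after miR-23a 0.49 ± 0.30 (-0.14 to 1.11, adjusted p = 0.409). Between miR-27a and miR-24 the difference did not pass the test (adjusted p = 0.528), so the rise is not shown to differ between these mimics. The endothelial and fibroblast markers, from cells that can carry alpha-6, summed to at most 1.44 and 1.41 CPM in any library. Epithelial markers summed to at most 34.3 CPM and platelet and megakaryocyte markers to at most 6.99 CPM. The part of such cells in the level of Itga6 was not tested.

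Several members followed the replicate number in their order, and of those named here only Itga4 was also called for a mimic. In all 4 groups the library numbered 4 was the highest for Itga4, and the library numbered 2 for Itgb7. By point values this also held for number 4 with Itgae and Itgav, and for number 2 with Itgal. For these genes the order in control libraries is not settled. Control replicate 1 had 0 reads of Itgae. Its Poisson intervals for Itgav (343 to 716 CPM) and Itgal (383 to 774 CPM) included the highest values of the other control libraries, 699 and 668 CPM. Itgav was lowest in the library numbered 1 in all 4 groups by point values, which the same interval does not settle in control libraries. What the numbers stand for is not in the labels.

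After removal of the mean of each replicate number, the genes whose log2-CPM followed each member most closely over the 15 libraries other than control replicate 1 were sought among 4905 genes. These correlations are a description over libraries that share mimic, depth and amplification. Itgb3 was followed by Srpk1, a kinase of splicing factors (Pearson r = 0.963), and Rab11fip1, a Rab11 effector in recycling endosomes (0.947). Srpk1 averaged 216 CPM in control libraries, 255 after miR-23a, 159 after miR-24 and 161 after miR-27a. Itga4 was followed by 4732418C07Rik (0.972) and Trip12, a ubiquitin ligase (0.961), and Itgb1 by Fbxo28, an F-box protein (0.951), and Ahnak (0.878). Itga6 was followed by Hipk3, a kinase (0.942), and Mov10, an RNA helicase (0.921), and the latter averaged 95.9 CPM in control libraries and 163 after miR-27a.

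The closest genes to Itgal were Itpr2, a calcium channel (0.897), and Ablim1 (0.874), and to Itgb7 Zfp330 (0.866) and Golga3 (0.852). Itgb2 was followed by Mettl16 (0.846) and Rps4x (0.832), and among the genes close to Itgav was Vapa (0.854). Itgae was below the level set for this search. Among the members themselves, Itgb1 and Itga6, which form a receptor, had r = 0.799, while Itgav and Itgb3, which also do, had r = -0.635 and Itga4 and Itgb1 r = -0.359. Itga4 and Itgb2 had the lowest value, with r = -0.766.

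Of the 18 other integrin and integrin-like subunit genes in the files, 12 passed the filter and 0 were called against control by edgeR with or without the replicate number. Their median log2 fold change was 0.09 after miR-23a, 0.34 after miR-24 and -0.15 after miR-27a, beside 0.04, 0.04 and 0.02 over all genes. At an unadjusted p under 0.05 there were 2 after miR-23a, 0 after miR-24 and 3 after miR-27a, and DESeq2 called 0, 0 and 2. Itgam and Itgax, the alpha subunits of myeloid beta-2 integrins, averaged 8.42 and 1.62 CPM over 16 libraries. Itga5, the fibronectin receptor subunit, was the gene of this list called between mimics. It averaged 5.45 ± 1.87 CPM (SD, n = 4) after miR-23a and 16.3 ± 5.73 after miR-27a, and was thus higher after miR-27a. The log2 fold change of miR-23a against miR-27a was -1.61 ± 0.29 (adjusted p = 0.00408, 0.0659 without the replicate number). That of miR-27a against control was 1.13 ± 0.32 (adjusted p = 0.0572), and that of miR-23a against control -0.48 ± 0.31 (adjusted p = 0.436). The Itga5 UTR of 983 bases holds a miR-27a 8mer. Such an 8mer was in 3.91% of 1457 genes with a UTR of like length, chosen as for Itga4. The part of this match in the level of Itga5 was not tested.

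Of 36 genes of integrin ligands, 17 were measured. With miR-24 3 were called higher and 0 lower, after miR-27a 0 and 1, and after miR-23a 0 in either direction (6 at an unadjusted p under 0.05, and 1 by DESeq2). The medians were 1.03, 0.27 and 0.66. For this list and those below, the shares of all genes called higher and lower were 2.32% and 2.25% after miR-24. They were 1.75% and 1.32% after miR-27a and 0.0386% and 0.386% after miR-23a. The medians over all genes, in the same order of mimics, were 0.04, 0.02 and 0.04. Tnc, the matrix protein tenascin C, rose after miR-24 from 2.37 ± 1.91 to 10.2 ± 2.49 CPM (1.76 ± 0.38, adjusted p = 0.0138, and 0.0371 without the replicate number). Lama5, a laminin chain, rose from 187 ± 78.4 to 419 ± 245 CPM (1.03 ± 0.24, adjusted p = 0.0224). Tgfb3 was the third, at 4.19 ± 1.10 CPM after miR-24. Col4a1, a basement membrane collagen, fell after miR-27a (-1.31 ± 0.34, adjusted p = 0.0392).

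Of 38 genes that switch integrins on or link them to actin, 34 were measured. With miR-23a 0 were called higher and 1 lower, after miR-24 1 and 3, and after miR-27a 1 and 1, and the medians were 0.08, -0.0064 and 0.09. Rap1a, the small GTPase that activates integrins through talin, fell from 747 ± 333 CPM in control libraries to 286 ± 50.2 after miR-23a (-1.37 ± 0.28, adjusted p = 0.0368) and 319 ± 125 after miR-24 (-1.22 ± 0.29, adjusted p = 0.0235). Rasa3, which switches Rap1 and Ras off, fell after miR-24 from 174 ± 47.6 to 80.3 ± 19.3 CPM (-1.13 ± 0.21, adjusted p = 0.00550). Actn1, an actin crosslinker bound by beta subunits, rose after miR-27a from 32.0 ± 23.0 to 75.3 ± 26.6 CPM (1.80 ± 0.33, adjusted p = 0.00621). Skap1, an adaptor that carries Rap1 signals to LFA-1, fell after miR-27a from 56.6 ± 6.40 to 29.0 ± 11.8 CPM (-1.09 ± 0.28, adjusted p = 0.0371).

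Of 24 genes that signal inward from integrins, all 24 were measured. With miR-24 1 was called higher (Bcar1, a docking protein of focal adhesions), after miR-27a 1 higher (Pak1, a Rac effector kinase), and after miR-23a 0 (3 at an unadjusted p under 0.05, and 1 by DESeq2). Both averaged under 1 CPM in control libraries, at 0.873 and 0.799 CPM. The medians were 0.06 after miR-23a, -0.12 after miR-24 and 0.07 after miR-27a.

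Of 25 lateral partners and traffic genes, 24 were measured. With miR-23a 0 were called higher and 1 lower, after miR-24 2 and 1, and after miR-27a 1 and 0, and the medians were -0.03, 0.34 and 0.27. The fall after miR-23a was that of Cd53, a leukocyte tetraspanin, from 1780 ± 824 to 910 ± 389 CPM (-0.95 ± 0.18, adjusted p = 0.0196). Dab2, an endocytic adaptor of beta subunits, rose after miR-24 from 4.09 ± 4.31 to 73.5 ± 71.2 CPM (3.52 ± 0.78, adjusted p = 0.0239), with a spread as large as its mean. Cd9, a tetraspanin, rose after miR-27a from 12.0 ± 9.68 to 34.9 ± 13.6 CPM (1.08 ± 0.28, adjusted p = 0.0443).

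Of 23 other adhesion receptors, 22 were measured. With miR-23a 0 were called higher and 1 lower, after miR-24 3 and 3, and after miR-27a 0 and 5, and the medians were 0.02, -0.04 and -0.24. Over all genes 0.0386% and 0.386% were called higher and lower after miR-23a, 2.32% and 2.25% after miR-24, and 1.75% and 1.32% after miR-27a. Cd2, which binds Cd48, rose after miR-24 from 74.9 ± 19.4 to 259 ± 45.0 CPM (1.78 ± 0.23, adjusted p = 0.000373, and 0.00946 without the replicate number). Cd48 itself fell from 202 ± 32.5 CPM to 98.6 ± 23.4 after miR-23a (-1.05 ± 0.17, adjusted p = 0.00553) and to 112 ± 23.8 after miR-27a (-0.87 ± 0.17, adjusted p = 0.0103). Cxadr, a junctional receptor, fell after miR-27a from 32.6 ± 11.5 to 6.80 ± 2.35 CPM (-1.97 ± 0.33, adjusted p = 0.00415, and 0.0162 without the replicate number). Amica1, which binds Cxadr, rose after miR-24 from 3.39 ± 2.41 to 20.2 ± 10.5 CPM (1.92 ± 0.38, adjusted p = 0.00729). Of the 27 list genes named by rule in the 3 comparisons with control, counted once a comparison, 4 kept an adjusted p under 0.05 without the replicate number (Tnc, Cd2, Amica1 and Cxadr), and 19 without control replicate 1. Among the falls and rises described above, those lost without that library were Rap1a after miR-23a (0.0503) and, after miR-27a, Skap1 (0.0518), Pak1 (0.0686), Col4a1 (0.0505) and Cd9 (0.0521).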

How the data were processed

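RNA from 150000 to 800000 sorted cells was amplified from 1 ng with a NuGEN Ovation kit and sequenced as single reads of 50 bases, 4 libraries to a lane, per the labels' protocols. The authors deposited raw read counts per gene symbol for each library. Bowtie2, TopHat, DESeq and the mm10 build are named in the submitters' processing notes; the counter, annotation and strand setting are not given in the sources used here. The 5 summary lines, 64.65% to 77.62% of all reads listed, were left out.

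In R 4.3.3, 12952 genes passed filterByExpr by group, and TMM-scaled counts were fitted with edgeR 4.0.16 (robust quasi-likelihood, two-sided, Benjamini-Hochberg over all genes, 0.05) in all 16 libraries, with mimic and replicate number as terms. CPM were computed on TMM-scaled sizes, with 2 reads as the prior for log2-CPM. The fit had a biological coefficient of variation of 0.290. The procedure was tested on simulated data. Control replicate 1, with 51474 gene reads against 2120408 to 13714841, stayed in every fit unless stated.

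The replicate number is in the model because the rule that defines the 9 genes asks for it. As a check of the pairing, deviations from group means were correlated between equal-numbered libraries over 4746 genes with mean log2-CPM above 5. All 4 correlations exceeded 0.1 for control with miR-27a (lowest 0.198), miR-23a with miR-24 (0.350) and miR-23a with miR-27a (0.257), and 3 of 4 for control with miR-23a (lowest -0.12), control with miR-24 (0.0304) and miR-24 with miR-27a (-0.0072).

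Symbols were matched to GENCODE M21. Named genes are the 9 members, up to 4 called genes a comparison from each of 6 lists (other integrin subunits, activation and actin linkage, inward signalling, ligands, lateral partners and traffic, other adhesion receptors), given here for the main ones, and for each member with mean log2-CPM of at least 5 the 2 most correlated genes at that level. A gene named by this rule is not reported here. Members and lists were chosen with earlier results of these data known. Marker lists of NK cells, mast cells, B cells and epithelium summed to at most 1.19, 0.645, 18.4 and 34.3 CPM in any library. Alternatives were the model without the replicate number, DESeq2 1.42.0, RLE scaling, no filter, voom of limma 3.58.1 with sample weights, Rn45s left out, only the 8 libraries compared, the 4 libraries numbered 1 left out, and each library left out in turn.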

Additional observations from a re-analysis of the deposited data

Results flagged for a closer look

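Itga6 in control replicate 2 stood apart from its group at 104 CPM, where the other 3 control libraries lay between 26.1 and 34.5 CPM. The gap to the nearest library made up 0.892 of the whole range. Of 36 sets of 4 libraries examined (9 genes in 4 groups) this was the 1 that stood out, and chance singles out about 1 in 20. Without this library the adjusted p of Itga6 with miR-27a against control was 0.00351 by edgeR's quasi-likelihood test.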

How the results depend on the processing

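Main counts of called integrins were 0, 2 and 2 for miR-23a, miR-24 and miR-27a against control, 1 between miR-23a and miR-24, 1 between miR-23a and miR-27a, 0 between miR-24 and miR-27a, and 2 for any difference. With no replicate block they were 0, 1, 0, 0, 0, 0 and 1, with DESeq2 0, 5, 3, 1, 1, 1 and 4, and with voom 0, 2, 2, 3, 1, 1 and 2. RLE scaling gave 3 for any difference and otherwise the main counts, and Rn45s left out or no filter gave the main counts throughout. Without the 4 libraries numbered 1 the counts were 0, 3, 1, 1, 0, 1 and 2, and in fits of only the 8 libraries compared 0, 2, 3, 1, 2 and 0. Equal counts did not always hold the same genes. After miR-24 against control, RLE scaling called Itgae (adjusted p = 0.0381) and not Itga4 (0.0511). For any difference, voom and the fit without libraries numbered 1 called Itga4 and not Itga6 (adjusted p = 0.0568 and 0.0942). Leaving out each library in turn gave 0 to 0, 0 to 5, 0 to 3, 1 to 2, 0 to 1, 0 to 1 and 1 to 3. Without control replicate 1, the shallow library, they were 0, 1, 1, 1, 1, 0 and 1.

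Over all genes, calls in the same order of comparisons fell from 55, 591, 398, 697, 382, 572 and 1254 to 17, 110, 22, 142, 71, 114 and 251 with no replicate block, and rose to 357, 1029, 951, 1068, 703, 1005 and 2323 with DESeq2. Other counts that moved by over 1.5 times were those of voom (32 for miR-23a against control, 458 between miR-23a and miR-24, 991 for miR-24 against miR-27a and 641 for any difference), of the fits without libraries numbered 1 (339, 235 and 1141 for miR-23a against miR-24, miR-23a against miR-27a and miR-24 against control) and of only 8 libraries (34 with miR-23a and 1883 with miR-27a against control, and 148 for miR-24 against miR-27a). Leaving out each library gave 12 to 334, 123 to 1490, 51 to 1010, 262 to 796, 127 to 548, 190 to 737 and 584 to 1780. RLE scaling moved the split of higher and lower genes with miR-24 against control from 300 and 291 to 359 and 222, and against miR-27a from 233 and 339 to 299 and 266. The cause was not tested.

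Of 1296 alternative values of single members, 1188 kept direction and side of the threshold, 29 lost a call, 22 gained a call and 57 changed sign. All 57 belong to 14 results with main log2 fold changes within 0.13 of 0, and their smallest adjusted p was 0.652. Itgb3 between miR-24 and miR-27a (main -0.0052) was 0.0588 without the block, 0.0546 with DESeq2, 0.0561 with RLE, 0.0178 without the filter, 0.211 with voom, 0.0031 without Rn45s, 0.0382 in 8 libraries, 0.133 without those numbered 1, and -0.274 to 0.237 when leaving out each library. Itgb7 with miR-27a (0.0155) was -0.0166 without the block, -0.0792 with voom, -0.0198 in 8 libraries, -0.0565 without those numbered 1, and -0.0868 to 0.187. Itgb2 with miR-23a (-0.013) was 0.0244 without the block and with DESeq2, 0.0257 with RLE, 0.0197 without the filter, and -0.179 to 0.182. Itgal with miR-24 was 0.0029 with DESeq2, Itga4 between miR-23a and miR-27a -0.0762 without the block, Itgb1 between miR-24 and miR-27a 0.0057 with DESeq2 and 0.0058 with RLE, and Itgb7 there 0.0157 with voom. Leaving out each library, Itga4 between miR-23a and miR-27a lay at -0.188 to 0.261 and Itgb2 there at -0.324 to 0.0519, Itgb3 with miR-23a at -0.343 to 0.0738, and with miR-24 Itgb7 at -0.211 to 0.0411, Itgal at -0.121 to 0.0168 and Itgav at -0.0216 to 0.233. Itgav with miR-27a lay at -0.0563 to 0.201, and between miR-24 and miR-27a Itgb1 at -0.183 to 0.0463, Itgb7 at -0.259 to 0.00027, Itgal at -0.0406 to 0.172 and Itgav at -0.0513 to 0.102.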
